A study of Mus musculus with 6 samples.

Results

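The collagen chains are the genes whose symbol is Col, a number, the letter a and a second number, and 44 of the 23279 genes measured carried such a name. Membership rested on the name alone, and all 44 were measured on all 6 arrays. The cells were primary myoblasts, cultured precursors of skeletal muscle, from limb muscles of mice (strain given as C57bl6N) with the Pax7-CreERT2 transgene and a single beta-catenin allele whose exon 3 lies between loxP sites (written Beta-cetenin-Exon3-loxP/+). Both groups carried these alleles. The 3 activated cultures were treated with 4-OH tamoxifen in ethanol while differentiating, and the 3 control cultures with ethanol alone. Loss of exon 3 leaves a beta-catenin that escapes degradation, and Cre is active only in cells that express Pax7. The cells had been expanded for 5 passages in Ham F10 (20% FBS, bFGF 2 ng/ml) and were then differentiated in DMEM with 2% HS over 24 hours. No group had tamoxifen without the Cre transgene, so an effect of 4-OH tamoxifen itself and an effect of recombination cannot be told apart.

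Collagens are trimers of chains that wind into a triple helix, and the identity of the chains decides what the trimer builds. Collagens I, III and V form the fibrils of the connective tissue between muscle fibres. Collagen IV forms the network of the basement membrane that wraps each fibre and covers the muscle stem cell, and collagen VI forms beaded filaments that link that membrane to the fibrils. In muscle most fibrillar collagen is made by fibroblasts, while myogenic cells also make collagens IV and V.

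Values are log2 expression per probe set, so a difference of 1 is a doubling on the linear scale, and levels of different chains are not comparable because each has its own probes. Median values of the arrays lay between 4.04 and 4.36. The SD over all probe sets was 1.88 to 2.12 on activated arrays and 1.72 to 2.01 on control arrays. Averaged over its correlations with the rest, control replicate 3 came last at 0.895, and the other 5 arrays had 0.923 to 0.946. All 12 markers of myoblasts and myocytes lay above the median level of all genes, with the muscle filament gene Des at a mean of 10.85 in activated and 9.29 in control cultures. Of 11 fibroblast markers 3 lay above that level (Fbln1, Thy1 and Tcf7l2). The others included Lum, Dcn, Pdgfra and Dpt, chosen after their values were seen, with means between 2.28 and 3.12.

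The chains did not move as 1 block, and no chain passed the test. At an adjusted p of 0.05, 0 of 44 chains were called (limma, background 0%) and 0 of 44 in the fit with replicate number as a block (background 0.133%). At an unadjusted p under 0.05, 4 chains were higher in activated cultures (Col25a1, Col12a1, Col11a1 and Col8a1; background 4.44%) and 1 was lower (Col7a1; background 3.42%). With the block the same 4 chains were higher (background 9.63%) and 4 were lower (background 7.01%), namely Col3a1, Col4a1, Col5a2 and Col7a1. Without activated replicate 3 the unblocked fit gave 1 higher (Col25a1) and 4 lower (Col3a1, Col4a1, Col4a2 and Col5a2). Every activated array lay above every control array in 3 chains (background 5.4%) and below in 4 (background 7.4%), counts that are near the background.

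**Figure D1:**
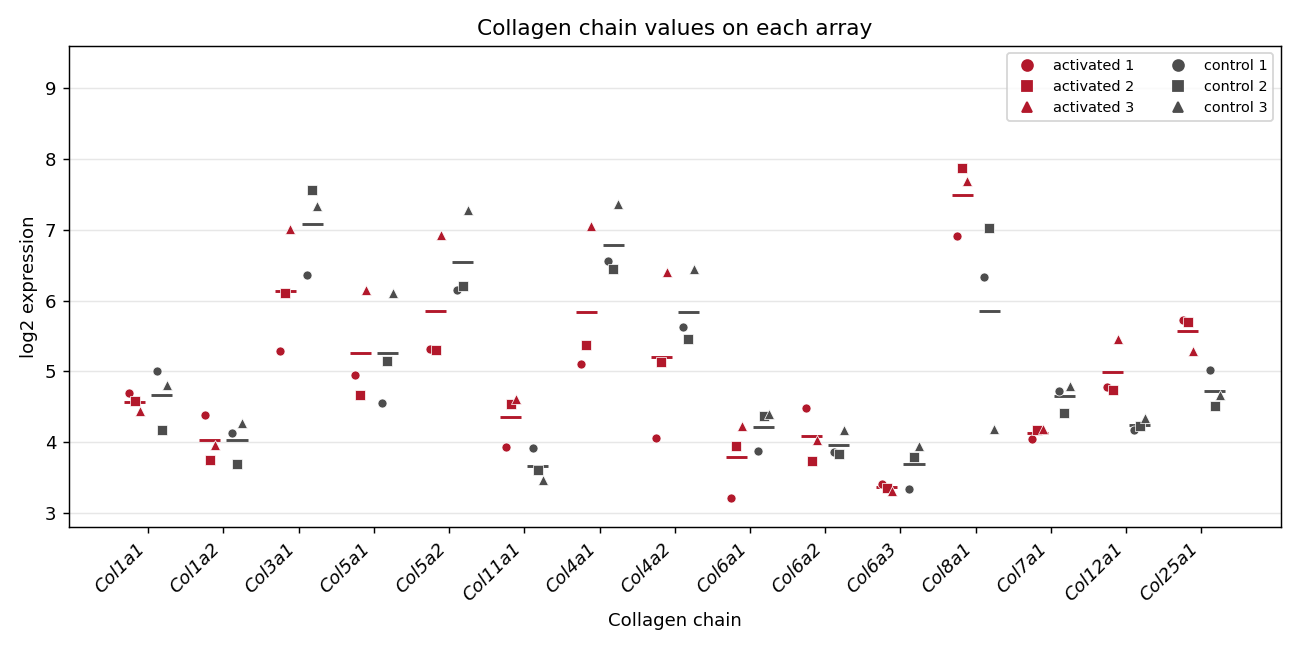
Values of 15 collagen chains on each array (vertical axis, log2 expression), with activated arrays in red to the left of control arrays in grey. Symbols mark the replicate number and short lines the group means. The activated arrays lie above all control arrays for Col11a1, Col12a1 and Col25a1 and below them for Col7a1, and replicate 3 is the highest of both groups for Col5a1, Col5a2, Col4a1 and Col4a2.

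Among the fibrillar collagens, 10 of 11 chains had a lower mean in activated cultures as deposited, but 5 after median centring, 8 after repeated quantile normalization and 6 after cyclic loess. The chains of collagen I, the main fibril of tendon, skin and bone, differed little. Col1a1 (Entrez 12842) was at 4.70, 4.57 and 4.43 in activated replicates 1, 2 and 3 and at 5.01, 4.17 and 4.80 in the control replicates. Its groups overlapped, with both the highest and the lowest value in control cultures. The difference was -0.09 ± 0.27 (SE) with a 95% interval of -0.73 to 0.55. Col1a2 (Entrez 12843) was at 4.38, 3.75 and 3.95 in activated and at 4.13, 3.70 and 4.26 in control cultures. Its means were 4.03 ± 0.32 in activated and 4.03 ± 0.30 in control cultures (SD, n = 3 each), with an interval of -0.63 to 0.62. The signs of both differences turned with the scaling.

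Col3a1 (Entrez 12825) encodes the only chain of collagen III, a fibrillar collagen of distensible tissues. It was at 5.28, 6.10 and 7.02 in activated replicates 1, 2 and 3, against 6.36, 7.57 and 7.34 in the control replicates. Each activated array was below the control array of its number, while the groups overlapped because activated replicate 3 exceeded control replicate 1. The difference was -0.95 ± 0.50 (SE; limma, adjusted p = 0.692, and 0.184 with the block). It was -0.53 without activated replicate 1.

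Collagen V starts fibril assembly and, in mouse, collagen V from muscle stem cells is known to help keep them quiescent. Col5a1 (Entrez 12831) was at 4.94, 4.67 and 6.15 in activated and at 4.55, 5.14 and 6.10 in control cultures. Replicate 3 was the highest in both groups, and the means were 5.25 ± 0.79 in activated and 5.27 ± 0.78 in control cultures (SD, n = 3 each). Col5a2 (Entrez 12832), its partner chain, was at 5.32, 5.30 and 6.92 in activated and at 6.15, 6.21 and 7.27 in control cultures. Here too replicate 3 was the highest in both groups, and each activated array was below the control array of its number. The difference was -0.69 ± 0.51 (SE; limma, adjusted p = 0.754, and 0.200 with the block). Leaving out control replicate 3 gave -0.33, and leaving out activated replicate 3 gave -1.23. Col3a1 and Col5a2 are neighbours in the RefSeq gene table.

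Col11a1 (Entrez 12814), a fibrillar chain that in cartilage joins collagen II, was the 1 fibrillar chain that was higher in activated cultures. Its values were 3.93, 4.53 and 4.62 in activated and 3.92, 3.60 and 3.46 in control cultures. The groups did not overlap, but the lowest activated array and the highest control array, both replicate 1, differed by 0.02. The difference was 0.70 ± 0.27 (SE), or 1.62-fold (limma, adjusted p = 0.588). The other 5 fibrillar chains had differences between -0.20 (Col27a1) and -0.05 (Col5a3), with Col2a1, the main chain of cartilage, at -0.11.

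All 6 chains of collagen IV were lower in activated cultures as deposited, 5 after median centring and 4 after quantile normalization or cyclic loess. Col4a1 and Col4a2 form the common basement membrane trimer. Col4a1 (Entrez 12826) was at 5.10, 5.37 and 7.05 in activated replicates 1, 2 and 3, against 6.56, 6.44 and 7.37 in the control replicates. The activated arrays numbered 1 and 2 were the lowest of the 6, and activated replicate 3 lay among the control arrays. The difference was -0.95 ± 0.53 (SE; limma, adjusted p = 0.701, and 0.185 with the block), -0.58 without activated replicate 1 and -1.56 without activated replicate 3. Col4a2 (Entrez 12827) was at 4.06, 5.13 and 6.40 in activated and at 5.62, 5.46 and 6.45 in control cultures. Its difference within pairs was -1.56, -0.32 and -0.05, so that pair 1 carried most of the mean of -0.65, which was -0.075 without activated replicate 1. Col4a3 and Col4a4, known from the kidney filter, differed by -0.32 and -0.23, and Col4a5 and Col4a6 by -0.02 and -0.14. Each of these 3 gene pairs is adjacent in the RefSeq gene table.

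Collagen VI filaments surround muscle fibres, and mutations in their 3 main chains cause muscular dystrophies in humans. Col6a1 (Entrez 12833) was at 3.21, 3.95 and 4.23 in activated replicates 1, 2 and 3, against 3.87, 4.37 and 4.40 in the control replicates. Each activated array was below the control array of its number. The difference was -0.42 ± 0.32 (SE; limma, adjusted p = 0.756), -0.12 without activated replicate 1, -0.63 without activated replicate 3 and -0.26 after quantile normalization. Col6a2 (Entrez 12834) was at 4.48, 3.73 and 4.03 in activated and at 3.85, 3.84 and 4.18 in control cultures, with the highest and the lowest value both in activated cultures. Col6a3 (Entrez 12835) was at 3.41, 3.35 and 3.31 in activated and at 3.34, 3.79 and 3.95 in control cultures. Col6a2 differed by 0.12 ± 0.26 (SE), by -0.077 without activated replicate 1 and by 0.30 after quantile normalization. Col6a3 differed by -0.33 ± 0.23 (SE), by -0.14 after quantile normalization, by -0.13 after cyclic loess and by -0.20 without control replicate 3. Of the 6 chains of the class 4 were lower as deposited and 3 in each of the 3 rescalings. The chains Col6a4, Col6a5 and Col6a6 differed by -0.41, -0.07 and 0.08.

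The largest difference of any chain was that of Col8a1 (Entrez 12837), a short-chain collagen of the sheet under the corneal endothelium and of vessel walls. It was at 6.91, 7.87 and 7.69 in activated replicates 1, 2 and 3 and at 6.34, 7.03 and 4.18 in the control replicates. Control replicate 3 was far below the other 5 arrays, and control replicate 2 exceeded activated replicate 1. The difference was 1.64 ± 0.69 (SE), or 3.11-fold (limma, adjusted p = 0.632, and 0.257 with the block). Without control replicate 3 the difference was 0.81. Col8a1 was higher in all 3 pairs, by 0.57, 0.84 and 3.51. Its partner chain Col8a2 differed by -0.40, again mostly through pair 3 (-1.29), and Col10a1, which marks hypertrophic cartilage, by 0.24.

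Col7a1 (Entrez 12836), which forms the anchoring fibrils below epithelia, was at 4.05, 4.17 and 4.18 in activated and at 4.72, 4.41 and 4.80 in control cultures. All 3 activated arrays lay below all 3 control arrays. The difference was -0.51 ± 0.21 (SE; limma, adjusted p = 0.621), and it stayed between -0.63 and -0.37 over 14 alternative settings.

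Of the 9 fibril-associated chains, which sit on the surface of fibrils and lack the long continuous helix of the fibrillar kind, 7 were lower and 2 higher in activated cultures, as deposited and in each of the 3 rescalings. Col12a1 (Entrez 12816), whose mutations cause a myopathy with lax joints in humans, was at 4.78, 4.73 and 5.45 in activated replicates, against 4.17, 4.22 and 4.34 in the control replicates. Every activated array was above every control array, and the control arrays lay close together. The difference was 0.74 ± 0.26 (SE), or 1.67-fold (limma, adjusted p = 0.544, and 0.187 with the block). Col9a1, Col19a1 and Col22a1 had all activated arrays below all control arrays, with differences of -0.45, -0.35 and -0.34. Col22a1 is known from the junction of muscle and tendon, and its mean was 3.54 ± 0.19 in activated and 3.87 ± 0.16 in control cultures (SD, n = 3 each). Col16a1 differed by -0.49, and the remaining members lay between -0.44 (Col20a1) and 0.05 (Col9a3).

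Among the 4 transmembrane collagens, Col25a1 (Entrez 77018) had the smallest p of all 44 chains. In mouse, Col25a1 made by muscle is known to be needed for motor axons to grow into it. It was at 5.73, 5.70 and 5.29 in activated replicates 1, 2 and 3, against 5.01, 4.51 and 4.66 in the control replicates. The groups did not overlap, and each pair differed by at least 0.63. The difference was 0.85 ± 0.24 (SE), or 1.80-fold, with a 95% interval of 0.28 to 1.42 (limma, adjusted p = 0.428, and 0.151 with the block). It ranged from 0.74 to 0.99 over 14 alternative settings. Col13a1, a collagen of the neuromuscular junction, differed by 0.08, Col23a1 by 0.01 and Col17a1, a component of hemidesmosomes, by -0.35.

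The multiplexins Col15a1 and Col18a1 belong to basement membranes, and Col18a1 is the source of endostatin. Col18a1 was at 6.77 ± 1.47 in activated and 7.07 ± 1.12 in control cultures (SD, n = 3 each), with replicate 3 the highest of both groups, at 8.43 in activated and 8.28 in control cultures. In the fit without the block its SE of 0.81 was the largest of all chains, and the 95% interval of the difference ran from -2.19 to 1.59. With the block the same difference of -0.30 had an SE of 0.22 (limma, adjusted p = 0.536). Col15a1 differed by -0.26. The remaining chains, Col26a1 and Col28a1, differed by -0.13 and 0.07.

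**Figure D2:**
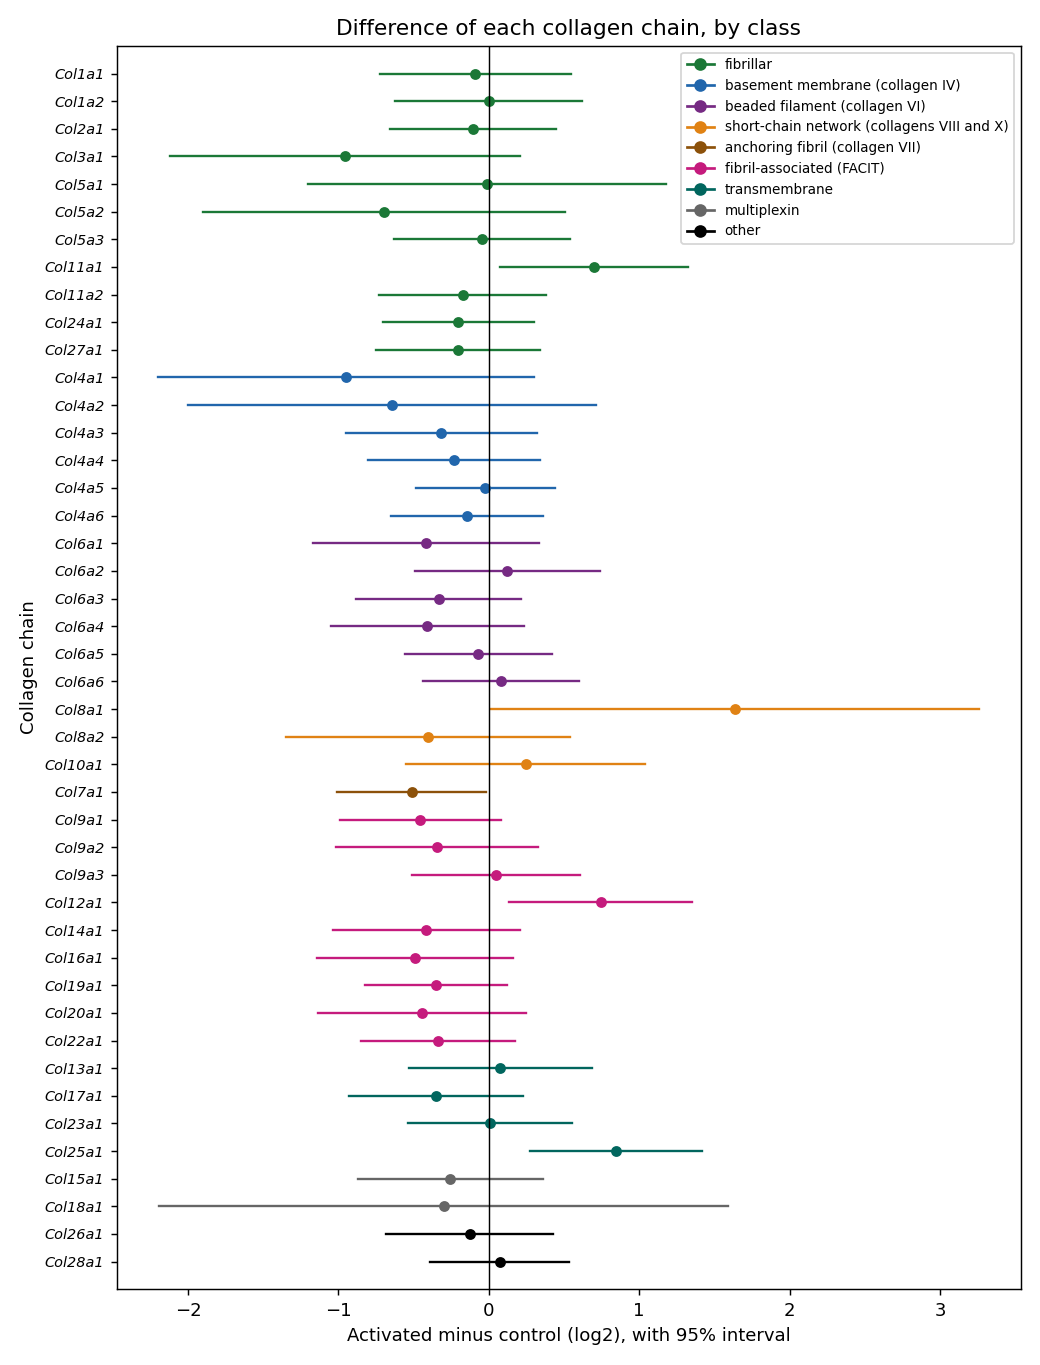
Difference between activated and control cultures (horizontal axis, log2) for all 44 collagen chains, ordered and coloured by class. Points are limma estimates of the fit without the block and bars their 95% intervals, unadjusted for the number of chains. The intervals of Col11a1, Col12a1, Col25a1 and Col8a1 lie above 0 and that of Col7a1 below it, and those of Col18a1, Col8a1, Col4a2 and Col4a1 are the widest.

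Promoter windows of RefSeq (build GRCm38.p6, 250 bases before to 50 after a start) were given for 35 of the 44 genes, in 38 windows. The bases before the start are shown for Col8a1 and Col11a1, which were higher in activated cultures, and for Col3a1 and Col7a1, which were lower, since these are among the larger differences and have a window outside other annotated genes. Each is read 5′ to 3′ on the gene's strand, and capitals mark any match to CTTTGA (a core of TCF/LEF sites), CAGCTG (an E-box of myogenic factors), CCAAT or TATAAA on either strand. The Col11a1 stretch stops at the outermost annotated start and is 189 bases long.
Col8a1, chr16:57754738-57754987, minus strand: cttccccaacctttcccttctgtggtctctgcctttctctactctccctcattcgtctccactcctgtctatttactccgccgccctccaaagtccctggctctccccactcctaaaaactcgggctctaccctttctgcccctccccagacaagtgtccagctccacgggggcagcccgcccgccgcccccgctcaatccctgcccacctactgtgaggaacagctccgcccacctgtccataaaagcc
Col11a1, chr3:114030290-114030478, plus strand: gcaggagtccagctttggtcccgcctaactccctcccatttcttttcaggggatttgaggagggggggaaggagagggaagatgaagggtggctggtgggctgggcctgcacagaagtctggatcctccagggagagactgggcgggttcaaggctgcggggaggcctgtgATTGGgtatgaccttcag
Col3a1, chr1:45311288-45311537, plus strand: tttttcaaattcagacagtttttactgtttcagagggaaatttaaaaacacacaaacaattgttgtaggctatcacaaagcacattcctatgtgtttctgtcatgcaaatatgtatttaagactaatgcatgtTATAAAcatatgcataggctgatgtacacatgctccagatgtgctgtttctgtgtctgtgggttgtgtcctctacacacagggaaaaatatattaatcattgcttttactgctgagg
Col7a1, chr9:108953336-108953585, plus strand: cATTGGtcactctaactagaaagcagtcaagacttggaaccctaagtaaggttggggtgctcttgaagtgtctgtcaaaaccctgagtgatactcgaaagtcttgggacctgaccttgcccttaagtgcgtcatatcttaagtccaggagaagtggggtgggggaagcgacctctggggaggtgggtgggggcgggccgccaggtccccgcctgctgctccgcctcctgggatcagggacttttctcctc
Of the 4 stretches, Col8a1 held none of the motifs, Col3a1 held TATAAA, and Col11a1 and Col7a1 held ATTGG, the reverse complement of CCAAT. Col6a1, lower in all 3 pairs with a difference of -0.42, also has a stretch outside other genes. It is not printed, and it held CTTTGA. Over whole windows of 300 bases, CTTTGA or its reverse complement occurred in 9 of 38 collagen windows (23.7%) and in 16.0% of all 32851 windows. CAGCTG occurred in 18.4% of collagen windows and in 16.3% of all windows. CCAAT occurred in 34.2% of collagen windows and in 37.4% of all windows, and TATAAA in 13.2% of collagen windows and in 13.6% of all windows. The 9 genes with CTTTGA (Col5a3, Col6a1, Col6a2, Col9a1, Col9a2, Col13a1, Col15a1, Col19a1 and Col20a1) included none of the 4 chains that were higher at an unadjusted p under 0.05, of which Col12a1 had no window. Nor did they include Col3a1, Col4a1 or Col7a1, which were lower in activated cultures, and Col5a2 had no window. In the order listed, the 9 genes with CTTTGA differed by -0.05, -0.42, 0.12, -0.45, -0.34, 0.08, -0.26, -0.35 and -0.44. No difference in motif content was tested. The windows of Col4a1 and Col4a2, which are transcribed in opposite directions, share 78 bases.

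The chains varied between cultures of a group as well as between groups. A range over 1 within a group occurred for 10 chains, and in both groups for Col3a1, Col5a1, Col5a2 and Col18a1. Of the 44 chains, 15 were highest in replicate 3 of both groups (34.1%, against 15.9% of all genes), 7 in replicate 1 of both (15.9%, against 22.4% of all genes) and 1, Col8a1, in replicate 2 of both (2.27%, against 13.1% of all genes). Control replicate 3 held the highest of the 6 values for 20 of the 44 chains and for 24.8% of all genes. Within pairs of the same number, 6 chains were higher in activated cultures in all 3 pairs (background 16.6%) and 15 were lower in all 3 (background 25%). The median difference over the chains was -0.10 in pair 1, -0.17 in pair 2 and -0.28 in pair 3. With both arrays numbered 3 left out, an alternative chosen after the values were seen, Col25a1 was higher and Col3a1, Col4a1 and Col5a2 lower at an unadjusted p under 0.05, with 0 chains past the adjusted test (limma).

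**Figure D3:**
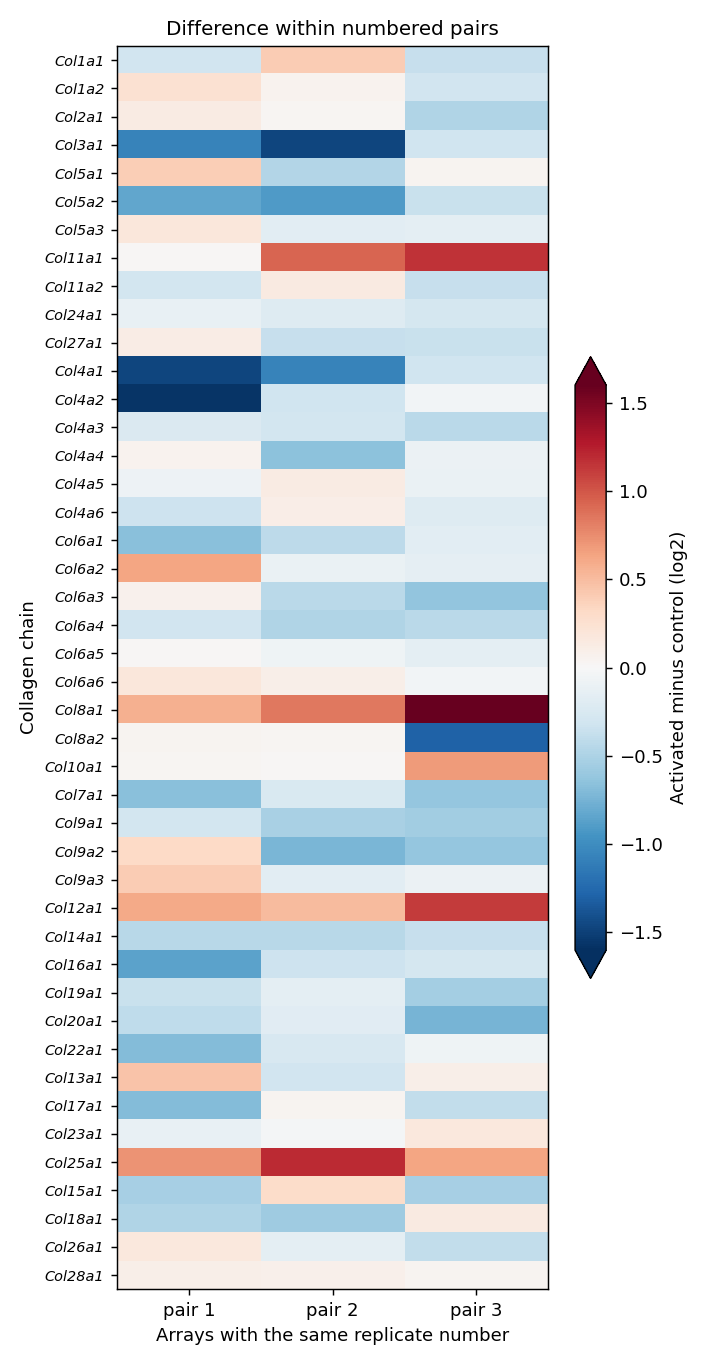
Difference of each of the 44 collagen chains (rows) between the activated and the control array of the same replicate number (columns), in log2 units, red where the activated array is higher. Col3a1, Col4a1 and Col5a2 are lower in every pair, most in pairs 1 and 2, and Col8a1 exceeds the colour scale in pair 3 with 3.51.

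Across all 44 chains 33 were lower in activated cultures (75%, background 59.7%) and 11 higher (25%, background 40.3%), with a median difference of -0.20 against -0.08 over all genes. Lower chains numbered 25 after median centring (56.8%, background 43.0%) and 28 after repeated quantile normalization (63.6%, background 51.6%). After cyclic loess they numbered 26 (59.1%, background 50.2%). Median centring moved the median of all genes by 0.14. For 35 chains the sign was the same in all 4 scalings. Differences depended on the level in all genes: the median difference was -0.16 for genes at or below the median level and 0.12 for those above it. The 23 chains at or below that level had a median of -0.23, and the 21 above it of -0.17. After quantile normalization these medians were -0.02 and 0.00 for all genes and -0.07 and -0.19 for the chains. The part of the difference in spread between arrays in the small differences of dim chains was not tested.

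**Figure D4:**
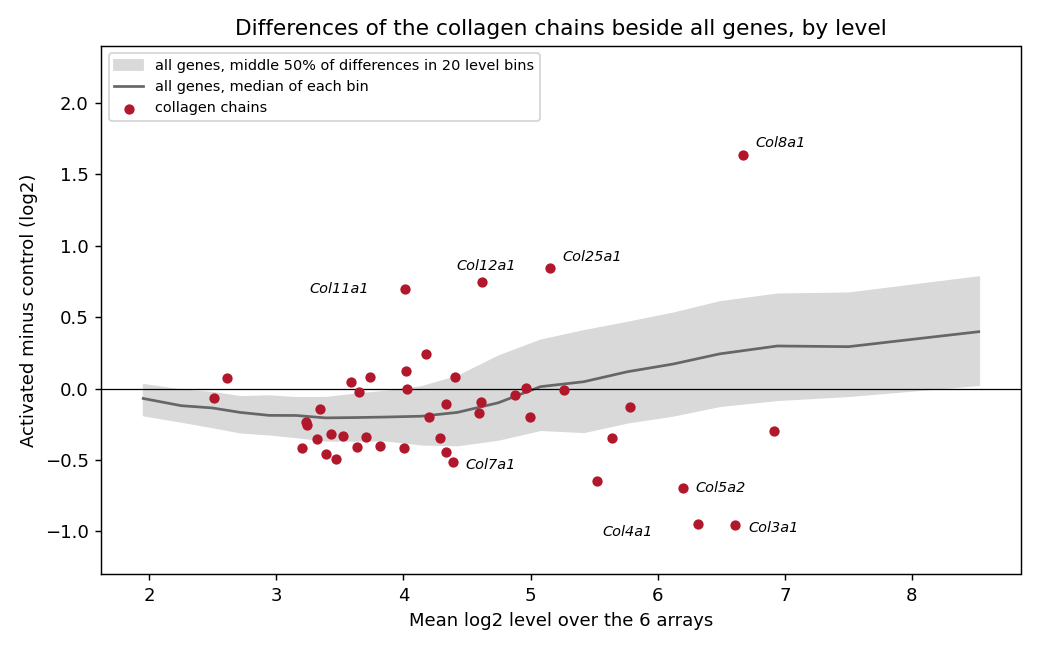
Difference between activated and control cultures (vertical axis, log2) against the mean level over the 6 arrays (horizontal axis, log2), with collagen chains as red points and all genes as the grey line (median of 20 level bins) and band (middle 50% of genes). Col3a1, Col4a1 and Col5a2 lie below the band and Col8a1, Col25a1, Col12a1 and Col11a1 above it.

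Markers of cells that could share the culture were set beside the chains, and in such bulk samples fewer cells of a type and less RNA per cell cannot be told apart. Of the 11640 genes at or below the median level 9086 were lower in activated cultures (6204 after quantile normalization). Of the 11639 genes above it 4810 were lower (5814). Markers above that level were 3 of 11 for fibroblasts, 6 of 10 for smooth muscle, 1 of 10 for endothelium and 4 of 10 for leukocytes. They were 2 of 7 for Schwann cells, 2 of 11 for cartilage and bone, 3 of 7 for tendon and all 12 for myoblasts. Of 11 measured fibroblast and fibro-adipogenic progenitor markers, 9 were lower in activated cultures (4 after quantile normalization). Their mean log2 level was 3.63 to 4.07 on activated arrays and 3.96 to 4.07 on control arrays. Of these, Fbln1 differed by -1.11, Cd34 by -0.62, Tcf7l2 by -0.87 and Thy1 by 1.17. Tcf7l2, like Col5a2 and Col4a1, was highest in replicate 3 of both groups, at 8.92 in activated and 9.29 in control cultures, as were 15.9% of all genes. The mean of the 11 fibroblast markers was highest in replicate 3 on activated arrays (4.07). On control arrays it was highest in replicate 1 (4.07, against 4.05 in replicate 3). Smooth muscle and pericyte markers had 6 of 10 lower, 3 after quantile normalization (5.18 to 5.43 on activated and 5.17 to 5.33 on control arrays), with the pericyte gene Rgs5 at -1.78. The largest difference the other way in this list was 1.26. At an unadjusted p under 0.05, 2 of the list were higher (background 4.44%) and 1 lower (background 3.42%; limma). Endothelial markers had 8 of 10 lower (2.96 to 3.24 and 3.22 to 3.44 on activated and control arrays), and leukocyte markers 9 of 10 (3.58 to 3.92 and 3.85 to 4.37). Schwann cell markers had 6 of 7 lower (4.18 to 4.32 and 4.28 to 4.59), and the 1 higher marker differed by 1.75, with all activated arrays above all control arrays. The lower counts of the endothelial, leukocyte and Schwann cell lists were the same after quantile normalization. All activated arrays lay below all control arrays for 1 of 10 endothelial, 4 of 10 leukocyte and 2 of 7 Schwann cell markers (background 7.4%). Cartilage and bone markers had 8 of 11 lower, 4 after quantile normalization (3.72 to 3.88 and 3.53 to 3.75), with the osteoblast factor Sp7 at 2.71, and tendon markers 4 of 7 higher (4.90 to 5.24 and 4.74 to 4.88). Myoblast and myocyte markers had 10 of 12 higher, 9 after quantile normalization, with a mean level of 8.89 to 9.50 on activated and 7.55 to 8.75 on control arrays. Their median difference was 1.17 as deposited and 0.86 after quantile normalization. The 2 lower markers were lower in all 3 pairs, and the lowest difference was -0.60. None of these markers passed the test, no detection calls were given for any of them, and their part in the differences of the chains was not tested.

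Genes that fold and modify collagen had a median difference of 0.33, with 13 of 20 higher and 7 lower in activated cultures (11 higher after quantile normalization). The median was 0.095 after quantile normalization and 0.10 after cyclic loess. Of these genes 18 lay above the median level, where 58.7% of all genes were higher. None passed over all genes in either fit, while at an unadjusted p under 0.05 4 were higher (background 4.44%) and 1 lower (background 3.42%). Collagen needs hydroxylated prolines for a stable helix, a reaction of prolyl 4-hydroxylase, whose 3 alpha subunits had differences of both signs. P4ha1 was at 7.35, 7.36 and 6.38 in activated and 5.91, 6.51 and 5.16 in control cultures, a difference of 1.17 ± 0.42 (SE; limma, adjusted p = 0.558, and 0.0915 with the block). P4ha2 differed by 0.95 ± 0.32, and P4ha3 by -0.76 ± 0.27 with all activated arrays below all control arrays. P3h1, the prolyl 3-hydroxylase that acts on collagen I, was at 6.99, 6.89 and 7.56 in activated and 5.82, 6.61 and 5.95 in control cultures, without overlap (1.02 ± 0.30, SE; limma, adjusted p = 0.446). Tmem38b, an ion channel of the endoplasmic reticulum chosen after its values were seen, had the largest difference of the list at 2.18 ± 0.92 (SE; limma, adjusted p = 0.631, and 0.085 with the block). Its values were 7.32, 7.83 and 4.34 in activated and 4.75, 4.96 and 3.23 in control cultures, with replicate 3 the lowest of both groups.

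Genes of export from the endoplasmic reticulum had 7 of 10 higher, with a median of 0.27 (6 higher and 0.16 after quantile normalization). The coat components Sec23a and Sec13 and the coat GTPase Sar1b were higher in all 3 pairs, with differences of 0.58, 0.73 and 0.94. After quantile normalization Sec13 was at a difference of 0.38 and Sec23a of 0.36. Without control replicate 3 the difference was 0.29 for Sec23a and 0.39 for Sar1b. Mia3, which loads the long procollagens into carriers, was at 7.20, 7.16 and 7.17 in activated and 7.15, 6.91 and 6.29 in control cultures, a difference of 0.39 that was 0.15 without control replicate 3 and 0.16 after quantile normalization. At an unadjusted p under 0.05 0 export genes were called by limma, and with the block 3 were higher (background 9.63%). Of the export genes 9 lay above the median level, where 58.7% of all genes were higher. Among the 11639 genes above that level 3300 were higher in all 3 pairs, and 2108 at that p with the block.

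Propeptide processing genes had 6 of 7 lower, with a median of -0.24 (5 lower after median centring or quantile normalization, and a median of -0.11 after median centring). Pcolce2, an enhancer of the C-proteinase, was at 3.98, 5.54 and 6.36 in activated and 5.86, 6.76 and 6.09 in control cultures, a difference of -0.94 that was -0.29 without activated replicate 1 and -1.47 without activated replicate 3. The C-proteinase Bmp1 differed by -0.43, between -0.88 without control replicate 1 and 0.12 without control replicate 3. Its relative Tll2 differed by -0.42, and by -0.24 after quantile normalization. The enhancer Pcolce differed by 0.31, but by 0.0041 after quantile normalization, -0.059 after cyclic loess and 0.023 without activated replicate 2. Crosslinking and assembly genes had 5 of 12 higher (8 after median centring), and their median of -0.06 turned to 0.07 after median centring and 0.02 after cyclic loess. The lysyl oxidases Lox and Loxl1 differed by 1.03 ± 0.48 and 0.68 ± 0.32 (SE), and Loxl3 by -0.40. Lox was at a difference of 0.60 without activated replicate 3, 0.67 without control replicate 3 and 0.23 with both left out. Loxl1 was at 0.37 without control replicate 3, and Loxl3 at -0.056 without activated replicate 1 and -0.82 without activated replicate 3. Pxdn, which crosslinks collagen IV, was at 5.46, 4.81 and 6.63 in activated and 6.11, 6.45 and 6.77 in control cultures, lower in each pair like Col4a1 and Col4a2. Its difference of -0.81 was -0.40 without activated replicate 2 and -1.31 without activated replicate 3.

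Collagen receptors and uptake genes had 3 of 12 higher, with a median of -0.18 (5 higher and -0.05 after quantile normalization). Itgb1, the beta subunit shared by the collagen-binding integrins, was at 9.85, 10.24 and 9.97 in activated and 9.38, 9.11 and 8.28 in control cultures. All activated arrays were above all control arrays, with a difference of 1.10 ± 0.32 (SE; limma, adjusted p = 0.433, and 0.156 with the block), which was 0.71 after quantile normalization and 0.62 after cyclic loess. Mrc2, an endocytic receptor that takes up collagen fragments, differed the other way, at 4.14, 4.44 and 5.12 in activated and 5.30, 5.51 and 5.55 in control cultures. The collagen-activated kinase Ddr1 differed by 0.66 (0.38 after quantile normalization). Adgrg1, an adhesion receptor for collagen III, differed by -0.67, -0.45 without activated replicate 1 and -1.05 without activated replicate 3. The collagen-binding alpha subunits Itga1, Itga2, Itga10 and Itga11, chosen after their values were seen, differed by -0.14, -0.23, -0.05 and -0.25.

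**Figure D5:**
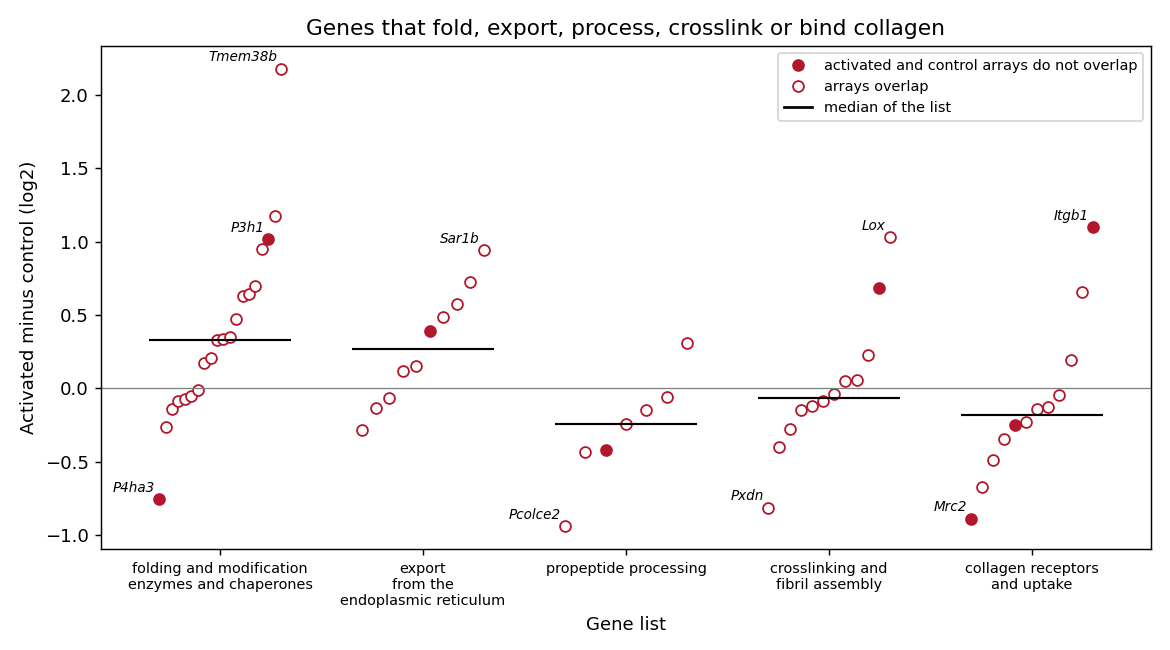
Difference between activated and control cultures (vertical axis, log2) of 61 genes that fold, export, process, crosslink or bind collagen, by list. Each point is a gene, filled where the activated and control arrays do not overlap, and lines are list medians. The medians of the folding and export lists are 0.33 and 0.27 as deposited (0.095 and 0.16 after quantile normalization), and that of the processing list is -0.24 (-0.11 after median centring).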

How the data were processed

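Affymetrix arrays were hybridised with biotin-labelled target made from 100 ng of total RNA, per the labels' protocols. In the table the authors deposited, each culture has 1 column of log2 values; the submitters' processing notes name RMA and Partek for it, with no version and no role. The sources used here give no array design, probe positions or detection calls, and the number of arrays limits the precision. Platform annotation named 23281 of 24479 probe sets with 1 symbol each, and for 2 symbols with several probe sets the one with the highest mean was kept (23279 genes).

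limma 3.58.1 in R 4.3.3 fitted group alone to all named probe sets, with two-sided moderated tests and Benjamini-Hochberg adjustment over all genes. The code was tested on simulated data. Errors of means are SDs over 3 cultures. The labels call the cultures independent and do not say whether animals differed, so the p-values reflect only how these cultures vary. Replicate numbers, from the titles, are shared between groups. Deviations from the group means correlated at 0.38, 0.49 and 0.45 across genes for numbers 1, 2 and 3, all above the criterion of 0.1, so same-numbered arrays were treated as pairs in a blocked fit. In both groups the array numbered 2 had the largest SD over all probe sets (2.12 in activated, 2.01 in control). The array numbered 1 had the smallest (1.88 and 1.72). The part of this array-wide spread in the correlations was not tested, and they were not computed after rescaling.

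The chains and lists were chosen with earlier results of these data known. Arrays are given in full for the chains of collagens I, III and V (Col5a1, Col5a2), for Col4a1, Col4a2 and Col6a1 to Col6a3, and for chains with an unadjusted p under 0.05 or, with groups apart, a difference of at least 1. Pathway lists and the fibroblast list show the 4 genes with the smallest p. Of the other marker lists the rule also took 4, but only the first is named for myoblasts, smooth muscle, and cartilage and bone, and none for the rest. Lum, Dcn, Pdgfra, Dpt, Tmem38b and the integrin alpha subunits lie outside the rule. All 44 chains matched the RefSeq table by Entrez number. Protein features were not used here.

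Alternatives were the block, median centring, repeated quantile normalization (also with the block), cyclic loess, genes above the median level only, an intensity trend with a robust prior, each array left out, and, added after seeing the data, both arrays numbered 3 left out. Promoter windows came from RefSeq (GRCm38.p6).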

Additional observations from a re-analysis of the deposited data

How the results depend on the processing

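No chain passed an adjusted p of 0.05 in limma under any of 14 alternatives, and 11 of the 15 chains given by array kept their direction in each alternative that could be computed. Chains lower at an unadjusted p under 0.05 (1 in the fit reported) numbered 4 with the replicate block and 4 with quantile normalization and block, 0 after median centring, 0 among genes above the median level and 0 with the intensity trend, 3 with both arrays numbered 3 left out, and 0 to 4 with 1 array left out, the 4 without activated replicate 3. Chains higher (4) numbered 1 to 4 with 1 array left out, the 1 again without activated replicate 3, and 1 with both arrays numbered 3 left out. Median centring, quantile normalization and cyclic loess each gave 3 higher (Col11a1, Col12a1 and Col25a1), without Col8a1. Col7a1 was not called lower in any of these 3 rescalings. The 1 chain lower after quantile normalization, and after cyclic loess, was Col3a1. Of the 21 chains above the median level 16 were lower (76.2%, against 41.3% of all genes above that level). The pathway lists held 20, 10, 7, 12 and 12 genes. Pathway genes higher at that p (5, background 4.44%) numbered 12 with the replicate block (background 9.63%) and 8 with quantile normalization and block. With 1 array left out they numbered 2 (without control replicate 1) to 9 (without control replicate 2). Of the 11639 genes above the median level 2108 were higher with the block at that p. Pathway genes lower (2, background 3.42%) numbered 6 with quantile normalization and block, 5 with both arrays numbered 3 left out, and 0 to 6 with 1 array left out. Shares of all genes at that p were not computed for the other settings. With both arrays numbered 3 left out 1 pathway gene passed, Tmem38b (a difference of 2.71; limma, adjusted p = 0.0360). Over all genes 63 passed there, 31 with the replicate block, 28 without activated replicate 3 and 0 otherwise. The median over the chains (-0.20) was -0.064 after median centring, -0.10 after quantile normalization with or without the replicate block, -0.067 after cyclic loess and -0.29 to -0.10 with 1 array left out. Pair medians after quantile normalization were -0.0044, -0.056 and -0.19. Directions turned for Col1a1 (0.048 after median centring, 0.013 after loess, 0.048 without both arrays numbered 3, -0.33 to 0.083 with 1 array left out) and Col1a2 (0.14, 0.18 and 0.15 in the same settings, 0.16 after quantile normalization with or without the block, -0.18 to 0.14 with 1 array left out). They also turned for Col5a1 (0.13 after median centring, -0.46 to 0.41 with 1 array left out), Col6a2 (-0.077 to 0.30), Bmp1 (-0.88 to 0.12) and Pcolce (-0.059 after loess). The cause was not tested. Where a group had 2 arrays, the shared spread was estimated over both groups, and small differences of dim chains are limited by signal over background, for which no value was given.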
